A study of Mus musculus with 32 samples.

Results

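The steroid-converting enzymes of liver described here are 10 genes: Hsd3b5, Hsd3b2, Hsd3b3, Hsd3b7, Cyp17a1, Hsd17b2, Hsd17b6, Hsd11b1, Akr1c6 and Srd5a1. The choice was made by name, for known activities on steroids, and with earlier results of these data known. They were 10 of the 20076 genes in the count table, and all 10 passed the filter on low counts, as did 11566 genes in all. The table covers livers of 32 male C57BL/6J mice in 8 groups of 4. The mice were Acadm-knockout (MCAD-KO, below KO), which carry the deletion in the whole body and lack medium-chain acyl-CoA dehydrogenase, or their wild-type littermates (WT). All had eaten a semisynthetic diet for 6 weeks, either low-fat (LF) or high-fat (HF), and were then fed or fasted for 16 h. The labels give an age of 7.5 to 16 without a unit. The groups are named by genotype, diet and feeding state, for example KO LF fasted, and mice by group and replicate.

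The liver takes up steroid hormones and their precursors from the blood and changes them by oxidation, reduction and hydroxylation, which activates some and inactivates others. Dehydrogenases of the short-chain and aldo-keto reductase families interconvert hydroxyl and keto groups, mostly with NAD or NADP as the cofactor, and a reductase removes the double bond of the first ring. In rodents many of these genes are expressed at different levels in males and females, under control of the pituitary rhythm of growth hormone, and several serve bile acid synthesis or retinol metabolism as well.

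The sequencing read the 3′ ends of transcripts, and a level is given as CPM, the counts of a gene scaled to a common library size with TMM factors. It is not divided by length, so that levels are compared between mice and not between genes. In bulk RNA, fewer cells of a type and less RNA per cell cannot be told apart. Total counts ranged from 2031053 to 4292200 per mouse. Counts of Acadm itself lay between 26 and 94 in the libraries of KO mice (16 mice) and between 566 and 2752 in those of WT mice (16 mice). Of the 32 mice, 30 were used. KO HF fasted replicate 4 was left out because its library held heart RNA: a sum over 12 genes of heart muscle was 37062 CPM, where no other mouse exceeded 287 CPM, and a sum over 10 hepatocyte genes was 1043 CPM, where the others had 56560 to 88839 CPM. All 10 enzymes were lower there than in the other KO HF fasted mice, with at most 20.9 CPM before TMM scaling. WT LF fed replicate 2 was left out as an outlier, and 8 of the 10 enzymes were below and 2 above the range of its 3 group mates. Its Hsd3b5 level was 0.818 CPM (2 counts), against 228 to 304 CPM in those mates, and its Cyp17a1 level was 30.3 CPM against 2.72 to 15.2 CPM. Its Srd5a1 level of 22.1 CPM was also far from the 140 to 150 CPM of the mates. Calls named below that ended when this mouse was kept are pointed out beside them.

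RNA of adrenal cortex was checked in 4 mice. The summed counts of 8 adrenal cortex genes (Star, Cyp11a1, Cyp11b1, Cyp21a1, Hsd3b1, Nr5a1, Mc2r and Akr1b7) were 119 to 557 in KO LF fasted replicates 3 and 4, KO HF fed replicate 1 and WT HF fasted replicate 3, and 0 to 21 in the 28 other mice. The sums correspond to 39.6 to 274 CPM in those 4 mice and at most 5.48 CPM elsewhere. Fdx1 and Mrap, also on the list of 11 genes, were left out of this sum because every library had counts of them. These were 203 to 884 and 15 to 347, the lowest of Mrap in the library with heart RNA. WT HF fasted replicate 2 stood apart in another way, with 17766 CPM over 11 genes of acinar pancreas, and KO HF fed replicate 1 had 2676 CPM over the same genes, where the remaining mice had at most 51.7 CPM. The part of this RNA in the levels of the enzymes was not tested. Each called result of an enzyme, and the number of enzymes called, was also computed without the 4 mice with adrenal RNA. No such run is given for the further gene lists or for the ranking of genes by likeness.

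**Figure D1:**
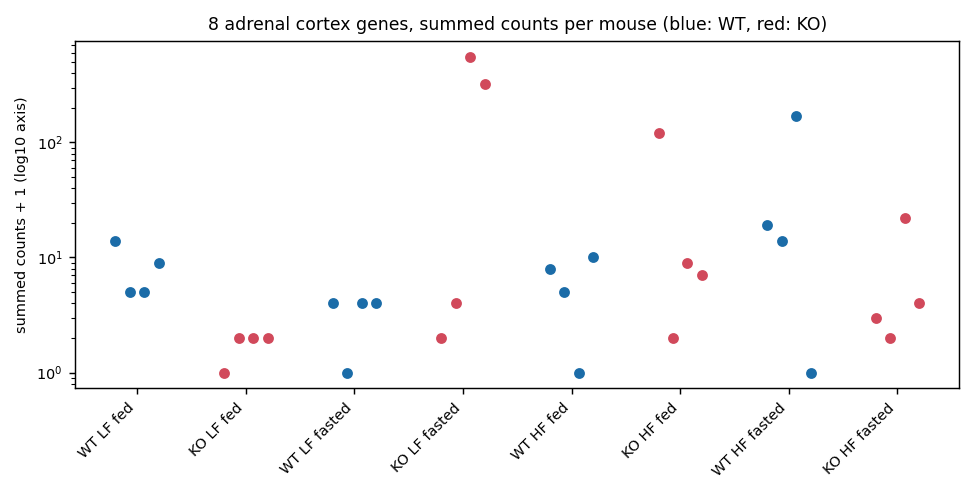
Summed counts of the 8 adrenal cortex genes plus 1 (log10 axis) for each of the 32 mice, by group on the horizontal axis, blue for WT and red for KO. The 4 checked mice stand at 119 to 557 counts, above the 0 to 21 counts of the others.

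Of the 10 genes, 3 lie near each other in one cluster, and the stretch before their start is shown here because all 3 genes fell with the fast on the LF diet. Hsd3b5 (chr3:98618634-98630252), Hsd3b2 (chr3:98709255-98724543) and Hsd3b3 (chr3:98741523-98763127) are on the minus strand within 144.5 kb of chromosome 3 (GRCm38, GENCODE vM21). The promoter sequences are from RefSeq (GRCm38.p6), 300 bases with 250 before and 50 after the start, written 5′ to 3′ on the minus strand. RefSeq had such a sequence for 8 of the 10 enzymes, and for Hsd3b3 the first of its 2 starts is shown. Capitals mark a match to CAAAGTNCA, an element of the type bound by HNF4, a nuclear receptor of hepatocytes; here the match is on the opposite strand and reads as its reverse complement.
Hsd3b5 (chr3:98645485-98645784): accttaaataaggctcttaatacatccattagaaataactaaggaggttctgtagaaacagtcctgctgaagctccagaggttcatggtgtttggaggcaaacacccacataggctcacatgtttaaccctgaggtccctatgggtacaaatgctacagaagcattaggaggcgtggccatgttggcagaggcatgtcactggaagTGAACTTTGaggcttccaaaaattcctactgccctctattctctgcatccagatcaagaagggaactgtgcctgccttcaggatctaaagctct
Hsd3b3 (chr3:98763079-98763378): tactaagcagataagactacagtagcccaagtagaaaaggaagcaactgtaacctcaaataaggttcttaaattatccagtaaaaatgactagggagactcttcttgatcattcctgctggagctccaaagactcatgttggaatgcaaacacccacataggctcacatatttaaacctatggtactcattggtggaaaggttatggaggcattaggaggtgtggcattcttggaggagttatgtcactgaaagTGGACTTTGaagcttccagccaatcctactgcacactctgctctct
Hsd3b2 (chr3:98724494-98724793): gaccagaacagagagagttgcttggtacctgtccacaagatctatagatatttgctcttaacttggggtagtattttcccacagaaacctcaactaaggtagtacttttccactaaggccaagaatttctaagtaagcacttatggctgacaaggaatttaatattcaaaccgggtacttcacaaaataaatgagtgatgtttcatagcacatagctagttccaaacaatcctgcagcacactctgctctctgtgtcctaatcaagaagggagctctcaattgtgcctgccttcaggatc
In an alignment of each pair, the Hsd3b5 and Hsd3b3 sequences were identical at 189 of 247 aligned bases (76.5%), and the Hsd3b5 and Hsd3b2 sequences at 172 of 233 (73.8%). The Hsd3b2 and Hsd3b3 sequences shared 63.2%, within the 53.5% to 68.2% of the other pairs of enzymes. The element began at position -44 from the start in Hsd3b5 and at position 4 in Hsd3b3, and no match was found in the window of Hsd3b2 or of the 5 other enzymes with a sequence. It occurs on either strand in 1.41% of 32851 RefSeq promoters. The other motifs searched were TTCNNNGAA (STAT), TGTTTAC (forkhead), AGAACA (glucocorticoid receptor half-site) and TATAAA, which occur in 8.3%, 3.65%, 19.0% and 13.6% of all promoters of the same length and in neither the Hsd3b5 nor the Hsd3b3 window. In the Hsd3b2 window AGAACA began at position -246. All were searched on both strands, and no matches overlapped in these 3 windows. The motifs were chosen after the sequences had been seen, and the RefSeq start of Hsd3b5 lies 15282 bases from the GENCODE start of the gene.

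Most of these enzymes changed with the fast on the LF diet. Averaged over genotypes and diets, 7 of the 10 enzymes fell (Hsd3b5, Hsd3b2, Hsd3b3, Hsd3b7, Hsd17b2, Akr1c6 and Srd5a1) and 1 rose (Cyp17a1), by edgeR's quasi-likelihood test at a Benjamini-Hochberg adjusted p below 0.05 (below, edgeR adjusted p). Of all genes tested 18.9% were called, 9.14% lower and 9.77% higher. Because the enzymes were chosen with earlier results of these data known, such shares stand beside their counts without a test. With WT LF fed replicate 2 kept, the calls of Hsd3b7 (-0.19, edgeR adjusted p = 0.151) and Srd5a1 (-0.33, edgeR adjusted p = 0.256) were lost, and 5 of the 10 fell and 1 rose. Within sequencing lane 8 the calls of Hsd3b7 and Cyp17a1 were lost. The median log2 fold change of the 10 enzymes was -0.41, against -0.0022 for all genes. On the LF diet, 6 enzymes fell and 1 rose in WT mice, where 7.54% of all genes were called (3.79% lower, 3.75% higher), and 8 fell and 1 rose in KO mice, where 13.8% were called (6.53% lower, 7.26% higher). On the HF diet none of the 10 passed the test in either genotype, while 0.424% of all genes did in WT mice (0.268% higher, 0.156% lower) and 0.527% in KO mice (0.294% higher, 0.233% lower). By edgeR at an unadjusted p below 0.05, 0 of the 10 and 1063 of all genes passed in WT and 2 of the 10 and 871 of all genes in KO mice on that diet, and DESeq2 called 0 of the 10 in both. The difference of the fasting effect between the diets was tested itself: it passed for 6 of the 10 enzymes, 5 higher on the HF diet and 1 lower, against 2.46% of all genes (1.26% higher, 1.20% lower). Counted by groups without overlap, 7 of the 10 were lower and 1 was higher in fasted WT mice on the LF diet (10.2% and 9.96% of all genes), and 6 were lower and 1 was higher in KO mice (6.97% and 6.73%). On the HF diet 1 was higher in WT (3.23%) and 2 were lower in KO mice (5.20%).

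**Figure D2:**
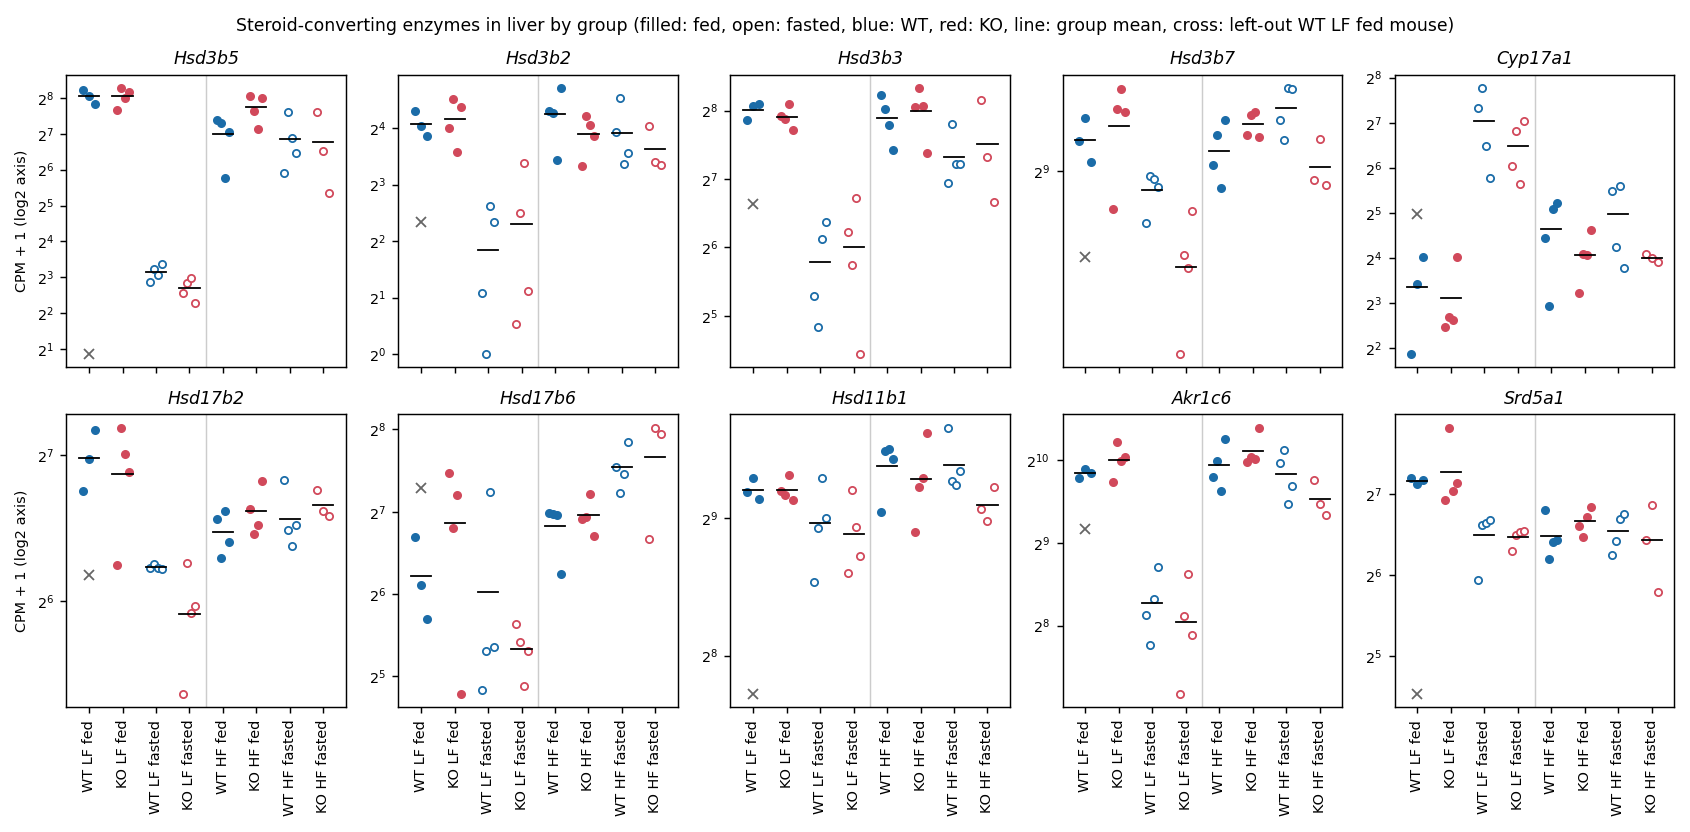
Level of each of the 10 enzymes in the 30 mice used, as CPM plus 1 on a log2 axis, with the 8 groups on the horizontal axis (filled, fed; open, fasted; blue, WT; red, KO). Black lines are group means, and the cross is the left-out mouse WT LF fed replicate 2; in Hsd3b5 the LF fasted mice, at 3.91 to 9.36 CPM, lie below all other groups.

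Hsd3b5 encodes a 3-ketosteroid reductase of male mouse liver, and it had the widest range of the 10 enzymes. The WT LF fed mice had 296, 267 and 227 CPM and the KO LF fed mice 203, 310, 254 and 286 CPM. After the fast, the WT LF mice had 6.33, 8.42, 7.33 and 9.36 CPM and the KO LF mice 4.85, 6.18, 6.86 and 3.91 CPM. Every LF fasted mouse was thus below every LF fed mouse, and none had a count of 0. The fall was 33.0-fold in WT (log2 fold change -5.04, SE 0.48, edgeR adjusted p = 2.68e-07) and 48.0-fold in KO (-5.58, SE 0.49, edgeR adjusted p = 3.88e-08). With WT LF fed replicate 2 kept, the WT value was -4.63 (SE 0.83, edgeR adjusted p = 0.00064).

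Fed and fasted mice shared a range of Hsd3b5 on the HF diet. WT HF fed mice had 166, 157, 53.9 and 131 CPM, and WT HF fasted mice 59.5, 193, 117 and 87.8 CPM. KO HF fed mice had 265, 199, 138 and 255 CPM, and KO HF fasted mice 196, 90.2 and 39.8 CPM. The log2 fold changes were -0.15 in WT (95% interval -0.93 to 0.62) and -0.99 in KO (-1.84 to -0.13, edgeR adjusted p = 0.528). The KO value depended on 1 mouse: without KO HF fasted replicate 1 it was -1.73 (SE 0.42, edgeR adjusted p = 0.0461). The fasting effect differed between the diets by 4.74 on the log2 scale (SE 0.43, edgeR adjusted p = 4.27e-07), and by 4.78 without the 4 mice with adrenal RNA (edgeR adjusted p = 7.24e-05). In the order of the 8 group means, from 263 ± 46.2 CPM (SD, n = 4) in KO LF fed to 5.45 ± 1.32 CPM (SD, n = 4) in KO LF fasted, the only neighbours whose mice did not overlap were KO HF fasted and WT LF fasted.

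Hsd3b2 and Hsd3b3, the neighbours of Hsd3b5, encode dehydrogenase/isomerases that turn pregnenolone and its relatives into the corresponding 4-ene-3-ketosteroids. Hsd3b3 had 232, 267 and 273 CPM in WT LF fed mice and 38.0, 27.7, 69.0 and 81.5 CPM in WT LF fasted mice. The KO LF mice had 240, 234, 274 and 208 CPM when fed and 74.1, 52.8, 104 and 20.7 CPM when fasted. No fasted mouse reached the level of a fed one on this diet. The log2 fold changes were -2.24 in WT (SE 0.40, edgeR adjusted p = 0.000575) and -1.94 in KO (SE 0.38, edgeR adjusted p = 0.000911). Hsd3b3 on the HF diet ranged from 166 to 321 CPM in the fed and from 100.2 to 283 CPM in the fasted mice, with log2 fold changes of -0.57 in WT and -0.49 in KO, neither past the test. The effects differed between the diets by 1.56 (SE 0.38, edgeR adjusted p = 0.0265), a call that was lost with WT LF fed replicate 2 kept (edgeR adjusted p = 0.0938) and without KO HF fasted replicate 1 or WT LF fed replicate 3.

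Hsd3b2 was read at much lower counts, 0 to 78 per mouse. Its level was 13.5 to 18.7 CPM in WT LF fed and 11.0 to 21.9 CPM in KO LF fed mice. It was 1.12, 0, 5.18 and 4.05 CPM in WT LF fasted and 0.441, 4.64, 9.49 and 1.17 CPM in KO LF fasted mice. The fasted mice were again below all fed mice of this diet. The log2 fold changes were -2.57 in WT (SE 0.56, edgeR adjusted p = 0.00267) and -2.13 in KO (SE 0.53, edgeR adjusted p = 0.00501), against -0.35 and -0.29 on the HF diet. The difference between the diets was 2.03 (SE 0.51, edgeR adjusted p = 0.0265). Its call was also lost with WT LF fed replicate 2 kept (edgeR adjusted p = 0.0945) and within sequencing lane 8. The same held without any one of KO HF fasted replicate 1, WT LF fasted replicate 1 and WT LF fed replicates 1 and 3. Reads of Hsd3b2 and Hsd3b3 may be split or discarded by the counting, since 26.9% and 42.3% of the 50-base words in their last 500 transcript bases also occur in other transcripts, mostly of Hsd3b6 and of each other. For Hsd3b5 this share was 0.0%. All 3 genes overlap Zfp697 on the other strand, and whether the counting used the strand is not given in the sources used here.

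Hsd3b7 (chr7:127800604-127803802, plus strand) acts on sterol intermediates of bile acid synthesis rather than on steroid hormones, and its fold changes were small. It had 447 to 680 CPM in KO LF fed and 271, 382, 366 and 445 CPM in KO LF fasted mice, groups that met at their edge without overlap. The log2 fold change there was -0.71 (SE 0.15, edgeR adjusted p = 0.000774). In WT mice on the LF diet it was -0.25 (95% interval -0.57 to 0.07). The difference of the fasting effect between genotypes, -0.44 (SE 0.15), did not pass (edgeR adjusted p = 0.942). Of the 3′ words of Hsd3b7, 64.9% are shared with Gm49388, an overlapping gene on the same strand in GENCODE vM21 that the count table does not list.

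Cyp17a1 (chr19:46667165-46673172, minus strand) encodes the steroid hydroxylase and lyase that leads to androgen precursors, and it alone of the 10 rose with the fast by this test. WT LF fed mice had 2.64, 9.72 and 15.2 CPM and WT LF fasted mice 160, 218, 88.8 and 53.7 CPM. KO LF fed mice had 4.49, 5.48, 5.15 and 15.3 CPM and KO LF fasted mice 64.4, 111, 48.5 and 131 CPM. Every fasted mouse was above every fed mouse of the LF diet. The rise was 14.5-fold in WT (log2 fold change 3.86, SE 0.68, edgeR adjusted p = 0.000577) and 11.5-fold in KO (3.53, SE 0.61, edgeR adjusted p = 0.000315). With WT LF fed replicate 2 kept it was 3.38 in WT (SE 0.60, edgeR adjusted p = 0.000568). Mice on the HF diet ranged from 6.59 to 47.2 CPM in both feeding states together, with log2 fold changes of 0.36 in WT (95% interval -0.78 to 1.50) and -0.08 in KO (-1.40 to 1.24). The effects differed between the diets by -3.55 (SE 0.62, edgeR adjusted p = 0.00247), and by -3.79 without the mice with adrenal RNA (edgeR adjusted p = 0.00438). The call of this difference was lost within sequencing lane 8. The 2 KO LF fasted mice with adrenal RNA had the lowest and the highest Cyp17a1 level of their group.

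Akr1c6 (chr13:4434306-4457877, plus strand) encodes an aldo-keto reductase that makes testosterone from androstenedione, and it fell with the fast on the LF diet. WT LF mice had 878, 953 and 923 CPM when fed and 279, 217, 320 and 418 CPM when fasted. KO LF mice had 856, 1193, 1015 and 1050 CPM when fed and 143, 277, 392 and 235 CPM when fasted. The groups were far apart in both genotypes. The log2 fold changes were -1.57 in WT (SE 0.22, edgeR adjusted p = 7.24e-06) and -1.97 in KO (SE 0.22, edgeR adjusted p = 2.81e-08). With the HF diet, WT mice had 788 to 1226 CPM fed and 707 to 1111 CPM fasted (log2 fold change -0.11, 95% interval -0.53 to 0.31). KO mice had 1005 to 1344 CPM fed and 865, 709 and 646 CPM fasted, groups without overlap, with a log2 fold change of -0.58 that did not pass (SE 0.23, edgeR adjusted p = 0.423). The difference between the diets was 1.43 (SE 0.22, edgeR adjusted p = 0.000103).

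**Figure D3:**
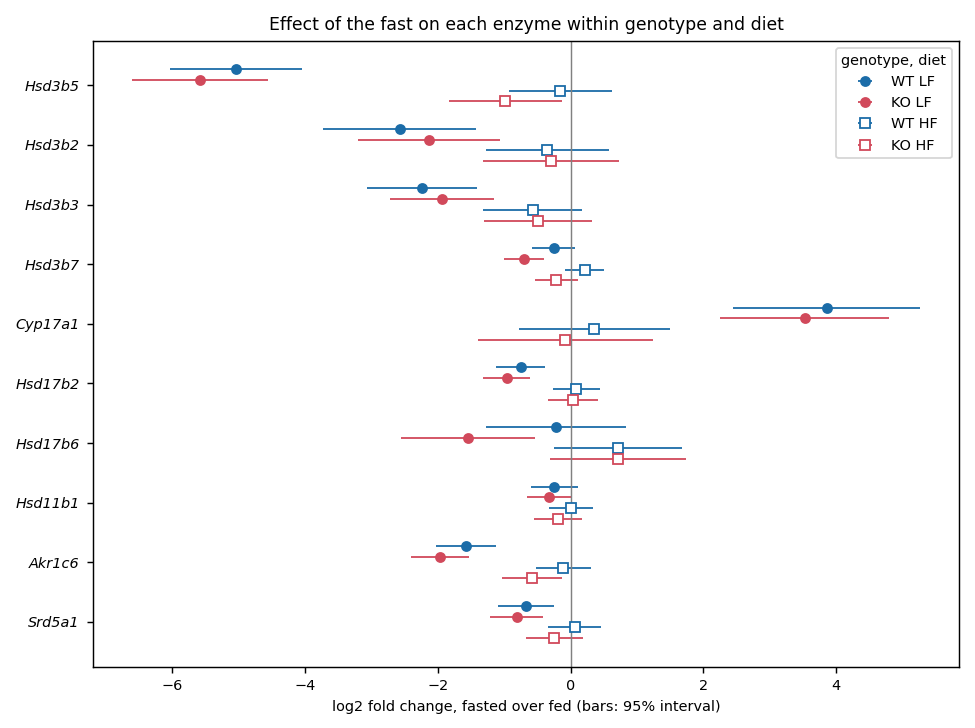
Log2 fold change from fed to fasted (horizontal axis) of each enzyme in the 4 combinations of genotype and diet, with bars for the 95% interval (filled circles, LF; open squares, HF; blue, WT; red, KO). Hsd3b5, at -5.04 and -5.58 on the LF diet, and Cyp17a1, at 3.86 and 3.53, stand farthest from 0, while none of the HF values passed the test.

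The other enzymes that convert androgens and oestrogens moved less than Akr1c6 with the fast on the LF diet. Hsd17b2 (chr8:117701904-117759027, plus strand) inactivates oestradiol and testosterone by oxidation. It had 107, 125 and 144 CPM in WT LF fed mice and 73.8, 75.4, 73.7 and 73.7 CPM in WT LF fasted mice, which were nearly equal among themselves. KO LF fed mice had 75.0, 145, 128 and 117 CPM and KO LF fasted mice 40.2, 75.7, 59.6 and 61.4 CPM, with 1 fasted mouse just above the lowest fed mouse. The log2 fold changes were -0.75 in WT (SE 0.18, edgeR adjusted p = 0.00601) and -0.96 in KO (SE 0.18, edgeR adjusted p = 0.000138), against 0.09 and 0.04 on the HF diet. The difference between the diets was 0.92 (SE 0.18, edgeR adjusted p = 0.00258). With WT LF fed replicate 2 kept the WT value was -0.54 and did not pass (edgeR adjusted p = 0.106), nor did it without WT LF fed replicate 4. The difference between the diets still passed with that replicate 2 kept (edgeR adjusted p = 0.037), but its call was lost within sequencing lane 8.

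Srd5a1 (chr13:69573449-69611442, minus strand) reduces testosterone to dihydrotestosterone and starts the reductive breakdown of corticosterone. It had 146, 138 and 143 CPM in WT LF fed and 60.3, 96.7, 98.3 and 101 CPM in WT LF fasted mice. In KO mice it had 121 to 224 CPM when fed and 77.7 to 91.9 CPM when fasted on that diet. The groups did not overlap in either genotype. The log2 fold changes were -0.67 in WT (SE 0.21, edgeR adjusted p = 0.0405) and -0.81 in KO (SE 0.20, edgeR adjusted p = 0.0036). The call in WT was fragile: it was lost when any one of WT LF fed replicates 1, 3 or 4 or WT LF fasted replicates 1 or 2 was left out, without the mice with adrenal RNA the adjusted p was 0.051, and with WT LF fed replicate 2 kept the value was -0.31 (SE 0.36, edgeR adjusted p = 0.697). The KO call was lost with that mouse kept as well, in a fit that shares its estimate of the spread (-0.81, SE 0.36, edgeR adjusted p = 0.158). With the sequencing lane as a term in the model, the WT call was also lost. All HF groups had means between 84.8 and 100.1 CPM, close to the LF fasted means of 89.1 CPM in WT and 87.5 CPM in KO.

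Hsd17b6 (chr10:127990936-128007611, minus strand) oxidises androstanediol and is close to the retinol dehydrogenases in sequence, and it varied widely between mice of one group. WT LF fasted mice had 27.6, 38.5, 150 and 40.0 CPM, and KO LF fed mice 177, 111, 147 and 26.6 CPM. One mouse in each of these groups lay far from the others. In KO mice on the LF diet the log2 fold change with fasting was -1.54 (SE 0.49, edgeR adjusted p = 0.0368). That call was lost without the mice with adrenal RNA (-1.36, edgeR adjusted p = 0.227) and when any one of 7 of the 8 mice of the comparison was left out. Among HF mice it had 74.7 to 126 CPM in WT fed and 149 to 230 CPM in WT fasted mice, without overlap but with a log2 fold change of 0.72 that did not pass (95% interval -0.24 to 1.68, edgeR adjusted p = 0.718). Of its 3′ words, 17.3% also occur in other transcripts, Rdh1 and Rdh16f1 foremost.

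Hsd11b1 (chr1:193221634-193264075, minus strand) regenerates active corticosterone from its inactive keto form, and its group means spanned the least of the 10, 0.51 on the log2 scale. Its group means ran from 471 ± 88.4 CPM (SD, n = 4) in KO LF fasted to 668 ± 93.5 CPM (SD, n = 4) in WT HF fasted mice. No neighbours in the order of the 8 groups were separate. The log2 fold change with fasting was -0.25 in WT (95% interval -0.60 to 0.11) and -0.32 in KO mice (-0.65 to 0.01) on the LF diet. It was 0.01 in WT (-0.32 to 0.34) and -0.19 in KO (-0.55 to 0.17) on the HF diet. None of these passed the test. Hsd11b1 and Srd5a1 overlap other listed genes, among them Lamb3 and Nsun2, on the opposite strand. Srd5a1 also overlaps Gm17108, a listed gene on the same strand.

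Calls by diet were made in the fasted mice. Averaged over genotypes and feeding states, 5 of the 10 were higher on the HF diet (Hsd3b5, Hsd3b2, Hsd3b3, Hsd17b6 and Akr1c6), against 3.49% of all genes called (2.26% higher, 1.24% lower), and the median log2 fold change of the 10 was 0.49 against 0.0068 for all genes. Of these calls, that of Hsd17b6 was lost without the mice with adrenal RNA (edgeR adjusted p = 0.0535) and within sequencing lane 8 (1.08, edgeR adjusted p = 0.381). That of Hsd3b2 was lost without any one of KO HF fasted replicate 1, WT LF fasted replicate 1, WT HF fasted replicate 2 and WT LF fed replicates 3 and 4, and with the replicate number as a block (edgeR adjusted p = 0.0533). That of Hsd3b3 was lost without KO HF fasted replicate 1 or WT LF fed replicate 1. In fed mice none of the 10 passed, where 0.0778% of all genes were called in WT (0.0519% higher, 0.0259% lower) and 0.00865% in KO mice. By edgeR at an unadjusted p below 0.05, 4 of the 10 and 604 of all genes passed in WT fed mice and 1 of the 10 and 840 of all genes in KO fed mice, and DESeq2 called 0 of the 10 in both. In WT fed mice the log2 fold change from LF to HF was -1.05 for Hsd3b5 (SE 0.40, edgeR adjusted p = 0.772), -0.69 for Srd5a1 (SE 0.21, edgeR adjusted p = 0.515) and 1.44 for Cyp17a1 (SE 0.66, edgeR adjusted p = 0.913). In KO fed mice they were -0.30, -0.61 and 1.04. Groups without overlap were seen for Hsd3b5, Hsd17b2 and Srd5a1 in WT (3 lower on the HF diet, against 3.99% of all genes) and for Srd5a1 in KO fed mice (1 lower, against 2.80%).

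In fasted WT mice 4 enzymes were higher on the HF diet, against 1.12% of all genes called (0.666% higher, 0.450% lower). Hsd3b5 was 14.3-fold higher (log2 fold change 3.84, SE 0.46, edgeR adjusted p = 4.74e-05) and Akr1c6 2.95-fold (1.56, SE 0.21, edgeR adjusted p = 3.53e-05). Hsd3b2 was 5.24-fold (edgeR adjusted p = 0.0182) and Hsd3b3 2.94-fold higher (edgeR adjusted p = 0.0403), but the call of Hsd3b2 was lost under 6 and that of Hsd3b3 under 18 of 42 other settings. Both were lost with WT LF fed replicate 2 kept and without any one of WT LF fasted replicates 1 and 2 and WT HF fasted replicate 2. Cyp17a1 was lower with a log2 fold change of -2.06 that did not pass (SE 0.54, edgeR adjusted p = 0.062). In fasted KO mice 5 were higher and 1 was lower, against 1.68% of all genes called (1.07% higher, 0.605% lower). Hsd3b5 was 19.7-fold (4.30, SE 0.50, edgeR adjusted p = 2.75e-05), Hsd17b6 5.10-fold (2.35, SE 0.52, edgeR adjusted p = 0.0207) and Akr1c6 2.82-fold higher (1.50, SE 0.22, edgeR adjusted p = 0.000134). Hsd3b3 (2.90-fold, edgeR adjusted p = 0.0479) and Hsd17b2 (1.68-fold, edgeR adjusted p = 0.0266) were also higher, and Cyp17a1 was 5.93-fold lower (edgeR adjusted p = 0.0376). Of 42 other settings, 29 ended the call of Hsd3b3, 12 that of Cyp17a1, 11 that of Hsd17b2 and 6 that of Hsd17b6. The first 3 of these were lost with WT LF fed replicate 2 kept, and all 4 without KO HF fasted replicate 2 and without KO LF fasted replicate 4. Without the mice with adrenal RNA, which include 2 of the 4 KO LF fasted mice, only Hsd3b5 (4.26, edgeR adjusted p = 0.00695) and Akr1c6 (1.81, edgeR adjusted p = 0.000247) passed among the 10. These comparisons use the same LF fasted mice as the fasting comparisons above and are not independent of them.

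By genotype none of the 10 enzymes passed in any of the 4 conditions or on average, with 0.00865% of all genes called (1 gene) in each case by edgeR and 0 of the 10 by DESeq2. By edgeR at an unadjusted p below 0.05, 1 of the 10 passed in LF fasted mice and 0 in the other conditions and on average, where 288 to 684 of all genes did. The differences of the fasting and of the diet effect between KO and WT mice were called for none of the 10 and for 0% of all genes, and by edgeR 1 and 0 of the 10 passed at an unadjusted p below 0.05 (573 and 397 of all genes), while DESeq2 called 0 of the 10. In HF fasted mice, the log2 fold change of KO to WT was -1.04 for Cyp17a1 (95% interval -2.33 to 0.24), with 44.0, 18.1, 47.2 and 12.7 CPM in WT and 16.1, 15.0 and 14.1 CPM in KO mice, which lay inside the WT range. It was -0.29 for Hsd11b1 (-0.65 to 0.06), with 603 to 805 CPM in WT and 504 to 596 CPM in KO mice, the only enzyme of the 10 whose groups did not overlap there (2.60% of all genes were lower without overlap). For Hsd3b5 it was -0.07 (-0.91 to 0.77) and for Srd5a1 -0.12 (-0.55 to 0.31). The median log2 fold change of the 10 in this comparison was -0.21, against -0.0097 for all genes.

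The sequencing lane given in the labels was not balanced, since all WT LF fed mice were on lane 8. The labels place 16 mice on each lane, while the methods describe smaller pools, so what the lane number marks is not certain. Within lane 7, in KO mice on the LF diet, fasting calls were kept for Hsd3b5 (-5.42, edgeR adjusted p = 0.000546), Cyp17a1 (3.91, edgeR adjusted p = 0.00578), Akr1c6 (-1.92, edgeR adjusted p = 0.00123), Hsd3b3 (-1.63, edgeR adjusted p = 0.00455), Hsd17b6 (-1.86, edgeR adjusted p = 0.00223) and Srd5a1 (-1.01, edgeR adjusted p = 0.0398). They were lost for Hsd3b2 (-1.96, edgeR adjusted p = 0.0868), Hsd3b7 (-0.68, edgeR adjusted p = 0.0966) and Hsd17b2 (-0.91, edgeR adjusted p = 0.0701). Within lane 8, in WT mice on the LF diet, calls were kept for Hsd3b5 (-4.95, edgeR adjusted p = 6.11e-10), Akr1c6 (-1.32, edgeR adjusted p = 9.86e-06), Hsd3b3 (-1.77, edgeR adjusted p = 1.42e-06), Hsd3b2 (-1.81, edgeR adjusted p = 0.00438) and Hsd17b2 (-0.76, edgeR adjusted p = 0.00747), and lost for Cyp17a1 (2.99, edgeR adjusted p = 0.0981) and Srd5a1 (-0.51, edgeR adjusted p = 0.0538). WT HF fed also had 1 mouse on lane 8, and averages over groups within that lane take such a lone mouse to vary like the other groups. The KO fasted mice used on lane 8 were 1 on each diet, so that values for them there are those of a single mouse and are given with no test. With fasting on the LF diet these were -6.10 for Hsd3b5, -2.14 for Akr1c6, -3.54 for Hsd3b3, 3.66 for Cyp17a1 and -0.56 for both Hsd3b7 and Srd5a1, and on the HF diet -2.30 for Hsd3b5, against -0.70 within lane 7. Hsd3b3 in LF fasted mice had a log2 fold change of KO to WT of 1.22 within lane 7, which did not pass, and of -1.87 with the single KO mouse of lane 8.

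The genes whose 8 group means ran most like those of an enzyme were ranked by the mean absolute difference of centred log2(CPM + 1) group means. For Hsd3b5 these were Car3, a carbonic anhydrase (0.33), Sqle, an enzyme of cholesterol synthesis (0.60), and Insig1, a sterol-regulated protein of the endoplasmic reticulum (0.63). For Akr1c6 they were Rgn (0.13), Akr1c20, a neighbour in the same reductase family (0.13), and Cys1 (0.14). Of the 3′ words of Akr1c6, 2.22% also occur in transcripts of Akr1c20. For Cyp17a1 they were 1810053B23Rik (0.28), the apolipoprotein gene Apoa4 (0.29) and Mat1a, which makes S-adenosylmethionine (0.35). For Hsd3b3 they were Keg1 (0.12), Nat8f1 (0.15) and Sdr9c7 (0.18), and for Hsd17b6 Ccnd1 (0.19), C730036E19Rik (0.21) and Ifit3b (0.21). For Hsd3b2 they were Cys1 (0.18), Osgin1 (0.23) and Inmt (0.25). Hsd3b7, Hsd11b1 and Srd5a1 were not ranked, since their group means span 1 or less on this scale. The ranking depended on the constant added to CPM: with 5 in place of 1, Cys1, Osgin1 and Inmt ranked 69, 187 and 47 for Hsd3b2, Cys1 ranked 147 for Akr1c6 and 1810053B23Rik ranked 33 for Cyp17a1, while Car3, Rgn, Keg1 and Ccnd1 stayed first for Hsd3b5, Akr1c6, Hsd3b3 and Hsd17b6.

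**Figure D4:**
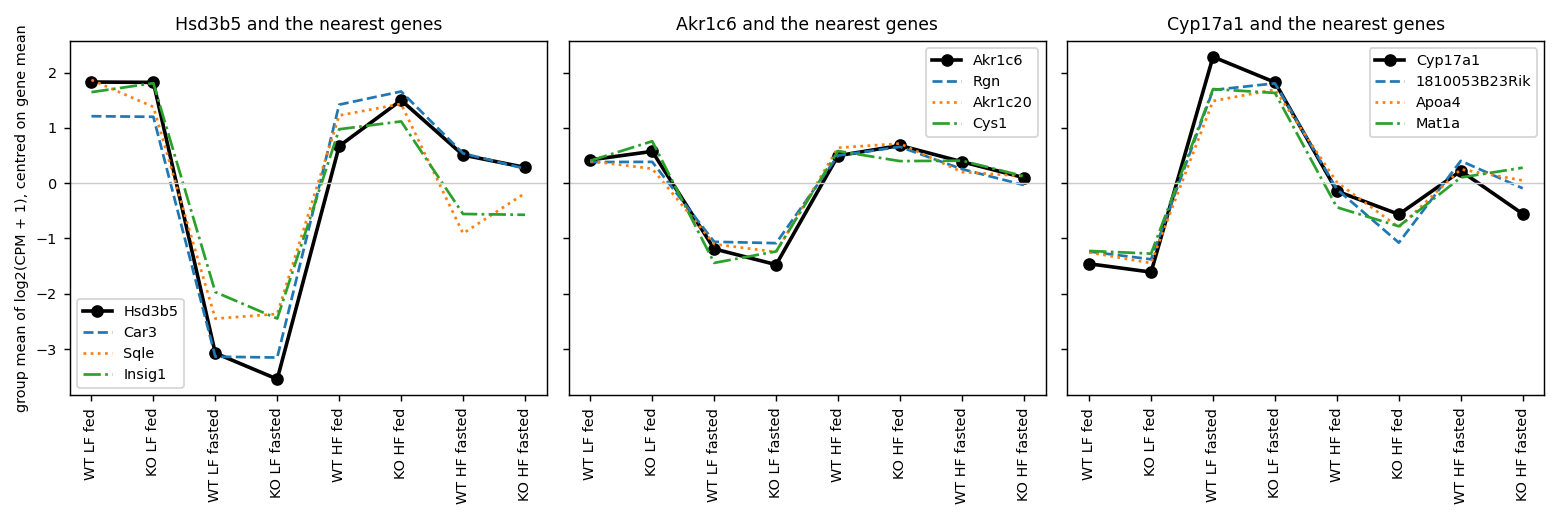
Group means of log2(CPM + 1), centred on the mean of each gene, for Hsd3b5, Akr1c6 and Cyp17a1 (black, with points) and the 3 genes most like each in pattern, over the 8 groups on the horizontal axis. Car3 follows Hsd3b5 with a mean absolute difference of 0.33, and both are lowest in the LF fasted groups.

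Further genes of steroid metabolism were read from lists, with the fasting effect averaged over genotypes and diets, where 9.77% of all genes rose and 9.14% fell. Of the other genes named for hydroxysteroid (17-beta) dehydrogenase activity, 6 were tested; 4 rose and 0 fell, and their median log2 fold change was 0.73. They were Hsd17b10 (1.24, SE 0.13, edgeR adjusted p = 4.12e-09), Hsd17b11 (1.10, SE 0.12, edgeR adjusted p = 3.89e-09), Hsd17b4 (0.83, SE 0.12, edgeR adjusted p = 6.08e-06) and Hsd17b13 (0.63, SE 0.09, edgeR adjusted p = 8.98e-07). Known roles of these lie in mitochondrial and peroxisomal fatty acid oxidation (Hsd17b10, Hsd17b4) and on lipid droplets (Hsd17b11, Hsd17b13). Of 12 other reductases, 2 rose and 4 fell (median -0.30), among them Akr1c20 with -0.97 (SE 0.12, edgeR adjusted p = 9.96e-08), Akr1c13 with -0.51 (SE 0.08, edgeR adjusted p = 9e-06) and Dhrs9 with -1.74 (SE 0.34, edgeR adjusted p = 0.000186), while Cbr1 rose by 0.54 (SE 0.11, edgeR adjusted p = 0.000395). The fasting effect differed between the diets for 1 of these 6 genes, Hsd17b13 (-0.66, SE 0.18, edgeR adjusted p = 0.0338). Among the 12 reductases it differed for Akr1c20 (0.95, SE 0.24, edgeR adjusted p = 0.0242) and Cbr1 (-0.93, SE 0.22, edgeR adjusted p = 0.0165), against 2.46% of all genes. On the HF diet alone 0 of the 6 and 0 of the 12 passed in either genotype (0.424% of all genes in WT, 0.527% in KO). Of the other Hsd3b genes, only Hsd3b1 passed the filter on low counts. It belongs to the adrenal genes above and is not read as liver.

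Among 9 genes listed as partners around the supply of electrons and NADPH, 2 rose and 4 fell (9.77% and 9.14% of all genes). Not all of the 9 are direct donors to the enzymes described here. Por, the reductase that passes electrons to Cyp17a1 and the other microsomal P450 enzymes, rose by 2.36 (SE 0.14, edgeR adjusted p = 1.92e-13). Its level was 23.6 to 42.2 CPM in LF fed and 166 to 421 CPM in LF fasted mice. In HF mice it was 33.7 to 56.9 CPM in fed and 59.1 to 153 CPM in fasted mice, and its fasting effect was smaller there by 2.02 on the log2 scale (SE 0.28, edgeR adjusted p = 7.99e-05). Cyb5b (-1.43, SE 0.11, edgeR adjusted p = 2.17e-12), Cyb5r3 (-0.97, SE 0.10, edgeR adjusted p = 1.73e-09) and Pgd (-1.09, SE 0.13, edgeR adjusted p = 7.35e-08) fell. H6pd, which supplies NADPH to Hsd11b1 in the endoplasmic reticulum and was named after its value was seen, did not pass, with 0.11 (SE 0.09, edgeR adjusted p = 0.493).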

How the data were processed

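Liver RNA of 32 mice was sequenced from the 3′ end (QuantSeq). The authors aligned the reads to GRCm38 with HISAT 0.1.5 and SAMtools 1.2, counted them per gene with HTSeq 0.6.1p1 in union mode, and deposited raw counts without normalization. Sources differ on the Ensembl annotation, release 82 in the methods and 76 in the label of the table. The 163 identifiers without a GENCODE vM21 symbol carried 0.125% of counts.

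Groups were taken from the labels. Tests used edgeR 4.0.16 under R 4.3.3 (TMM, filterByExpr, robust quasi-likelihood, Benjamini-Hochberg over 11566 genes) on 30 mice in one model of the 8 groups. The fit was also run on simulated counts. There all genes shared the same spread, without foreign RNA, outlying mice or lane differences, so that run does not cover these. DESeq2 1.42.0, no filter, no TMM, fits on the 2 groups compared, lane, age, the replicate number as a block, other sets of mice and leaving out each mouse were alternatives. Within-lane fits were chosen after seeing the data. In 48 pairs of mice of one group the smallest chi-square per gene was 3.93, so that no libraries were merged. The replicate numbers did not pair mice (median residual correlation 0.0066 over 98 pairs, 3 of them over 0.1). p-values and intervals cover the spread between mice.

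The enzymes and gene lists were chosen with earlier results of these data known. Named are all 10 enzymes, Acadm, adrenal cortex genes, the 3 genes most like each enzyme (for Hsd17b2 not reported here), overlapping genes and at most 4 genes per list and comparison, those with the smallest p among the called.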

Additional observations from a re-analysis of the deposited data

Results flagged for a closer look

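A single mouse lay far from its group in 7 of 60 tests of an enzyme in a group of 4 mice, by Dixon's criterion, which flags about 1 in 20 groups by chance. Cyp17a1 was 15.3 CPM in KO LF fed replicate 4, where the 3 other mice had 4.49 to 5.48 CPM. Hsd17b6 was 150 CPM in WT LF fasted replicate 3, where the others had 27.6 to 40.0 CPM, and 74.7 CPM in WT HF fed replicate 4, where the others had 124 to 126 CPM. Hsd11b1 was 526 CPM in WT HF fed replicate 1 against 690 to 723 CPM in the others, and Akr1c6 was 1344 CPM in KO HF fed replicate 4 against 1005 to 1050 CPM. Srd5a1 was 60.3 CPM in WT LF fasted replicate 1 against 96.7 to 101 CPM. Hsd17b2 was 75.4 CPM in WT LF fasted replicate 2 against 73.7 to 73.8 CPM, a gap that stands out only because the others were so close. The groups of 3 mice were not tested.

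For 6 enzymes the effect of the fast differed between the HF and the LF diet by a test of the difference itself (edgeR, adjusted over all genes). The difference was 4.74 for Hsd3b5, 2.03 for Hsd3b2, 1.56 for Hsd3b3, 0.92 for Hsd17b2 and 1.43 for Akr1c6 on the log2 scale, all less negative on the HF diet, and -3.55 for Cyp17a1, whose rise was smaller there.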

How the results depend on the processing

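No called enzyme result changed sign under any setting. Hsd3b5 kept its calls in both LF fasting comparisons, over the fasting mean and in the difference between diets under every setting tried, with log2 values from -5.17 to -4.63 in WT, -6.10 to -5.42 in KO and 4.20 to 4.95 for the difference. With all 32 mice, the heart library included, the enzymes called were 5 for the fasting mean, 0 for the diet mean, 2 for the difference of fasting between diets, 2 and 4 for fasting in WT and KO LF mice, and 0 and 2 for diet in WT and KO fasted mice. With WT LF fed replicate 2 kept, 2 and 3 were called for diet in WT and KO fasted mice. For diet in KO fasted mice, 2 were called without the mice with adrenal RNA, 3 from the 2 groups alone and 3 within lane 7. Within lane 8, 2 were called for diet in WT fasted mice. KO LF fasted, KO HF fasted and WT HF fed have 1 mouse each on lane 8, so counts for comparisons and averages that include them are not given. Leaving out 1 mouse gave 3 to 6 for the diet mean, 0 to 1 for fasting in KO HF mice, 2 to 6 and 2 to 7 for diet in WT and KO fasted mice. The cause was not tested. The lowest counts came without KO HF fasted replicate 1 (diet mean 3), without WT LF fasted replicate 1 or 2 or WT HF fasted replicate 2 (diet in WT fasted mice 2), and without KO HF fasted replicate 1, 2 or 3 or KO LF fasted replicate 4 (diet in KO fasted mice 2 or 3).

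With the replicate block, 8 enzymes were called for the fasting mean, 4 for the diet mean, 6 for the difference between diets, 7 and 8 for fasting in WT and KO LF mice and 3 and 4 for diet in WT and KO fasted mice. Counts of Hsd3b2 down to 0 limit its precision.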

Other observations

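Further gene lists were counted in the fasting comparison, where 9.77% of all genes rose and 9.14% fell, and no list was tested as a set. Of 10 genes known to respond to glucocorticoids, 5 rose and 0 fell over the mean of genotypes and diets, with a median log2 fold change of 0.55 against -0.0022 for all genes. Among them were the metallothionein gene Mt2 (4.53, SE 0.47, edgeR adjusted p = 1.24e-07), the clock gene Per1 (2.22, SE 0.30, edgeR adjusted p = 1.99e-06), the receptor co-chaperone Fkbp5 (1.92, SE 0.27, edgeR adjusted p = 1.08e-05) and the gluconeogenic Pck1 (1.56, SE 0.25, edgeR adjusted p = 5.38e-05). Fkbp5 had 2.40 to 21.6 CPM in LF fed and 16.8 to 136 CPM in LF fasted mice. Of 18 steroid receptors and regulators 5 rose and 4 fell. Nr1i3, the receptor CAR, rose by 1.52 (SE 0.10, edgeR adjusted p = 1.18e-14). The glucocorticoid receptor gene Nr3c1 (-0.42, SE 0.09, edgeR adjusted p = 0.00058), Stat5b, which carries the growth hormone signal (-0.42, SE 0.09, edgeR adjusted p = 0.000444), and Foxa2 (-0.91, SE 0.11, edgeR adjusted p = 4.22e-08) fell. The fasting effect differed between the diets for Per1 (-2.24, edgeR adjusted p = 0.04), Nr1i3 (-0.96, edgeR adjusted p = 0.00309), Nr3c1 (0.73, edgeR adjusted p = 0.0183) and Nr0b2 (1.71, edgeR adjusted p = 0.0299), against 2.46% of all genes. On the HF diet alone Nr1i3 passed in both genotypes and Mt2 in KO mice (0.424% of all genes in WT, 0.527% in KO), and no other gene of these lists passed.

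Of 15 genes with higher expression in male than in female mouse liver, 5 fell and 2 rose (median -0.24). The 2 that rose were Cyp4a12b (0.81, SE 0.18, edgeR adjusted p = 0.0014) and Cyp2d9 (0.45, SE 0.08, edgeR adjusted p = 0.000102). Nudt7, a peroxisomal coenzyme A hydrolase, fell by 1.88 (SE 0.10, edgeR adjusted p = 4.59e-17), and the organic anion transporter Slco1a1 fell by 0.61 (SE 0.10, edgeR adjusted p = 1.96e-05), both less on the HF diet (differences of 1.86 and 1.03, edgeR adjusted p = 3.03e-08 and 0.00313). Of 15 genes listed as higher in females, 4 were tested and 3 rose, one of them Cyp17a1 itself. The others were Acot3, a peroxisomal thioesterase (3.68, SE 0.38, edgeR adjusted p = 6.51e-08), and Fmo2 (0.81, SE 0.20, edgeR adjusted p = 0.00326). Like Cyp17a1, both rose less on the HF diet (differences of -3.10 and -1.62, edgeR adjusted p = 0.0386 and 0.0228). On that diet alone 0 of the 4 passed in either genotype (0.424% of all genes in WT, 0.527% in KO). Of 9 steroid-hydroxylating P450 genes 4 rose and 2 fell. Cyp3a13 (0.83, SE 0.09, edgeR adjusted p = 5.44e-09) and Cyp3a25 (1.09, SE 0.20, edgeR adjusted p = 0.000266) were higher and Cyp1a2 (-0.63, SE 0.14, edgeR adjusted p = 0.00133) was lower. The fasting effect differed between the diets for 1 of these 9, Cyp3a13 (-0.66, SE 0.18, edgeR adjusted p = 0.0386), against 2.46% of all genes. Of 10 conjugating enzymes 2 rose (median of the list -0.10), Sult1a1 (0.62, SE 0.11, edgeR adjusted p = 3.73e-05) and Sult1e1 (2.42, SE 0.79, edgeR adjusted p = 0.0269), the latter at a mean of 0.899 CPM. Of marker genes of other cells that could be tested, 4 of 10 hepatocyte genes rose and 1 fell, 1 of 8 adrenal cortex genes rose and 1 fell (Mrap and Fdx1, which all livers had), 1 of 3 adrenal medulla genes rose, and 0 of 6 heart, 0 of 5 acinar pancreas and 0 of 2 Leydig cell genes passed by edgeR in either direction, while 0 of 9 kidney genes passed the filter on low counts.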
